A study of Mus musculus with 6 samples.

Results

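The proteasome genes of mdx muscle stem cells were examined after exposure to PSB-KD107, a synthetic agonist of the receptor Gpr18. The genes were taken from the count table by symbol, as every entry beginning with Psma, Psmb, Psmc, Psmd, Psme or Psmg and a digit, without the 3 immunoproteasome subunits and without pseudogenes. This gave 46 of the 47069 genes listed, and 44 of them had enough counts to be tested among 14165 genes. The cells were myogenic progenitors sorted from the muscle of mdx mice, which lack dystrophin, by the absence of Sca-1, CD45, CD31 and CD11b and the presence of the integrins Itgb1 and Itga7. They were grown in serum and FGF2. Both groups carried the mdx mutation, and 3 libraries received vehicle and 3 received 10 μM PSB-KD107, for 2 days according to the sample records, while the study's methods give an overnight exposure. The libraries of each group are numbered 1, 2 and 4 in the table, and the methods give 3 different mice without tying them to these numbers. Animal age was not given for the sorted cells.

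The proteasome is the barrel-shaped protease that degrades proteins tagged with ubiquitin. Its core is built of alpha rings, which gate the entrance, around beta rings, which hold the catalytic sites. A base of ATPases unfolds the substrate, and a lid removes ubiquitin. Activators can cap the core in place of base and lid, and dedicated chaperones assemble the rings. In muscle, the proteasome breaks down contractile proteins during atrophy, and its subunit genes are known to be induced together by the transcription factor Nfe2l1 when proteasome activity falls short.

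Each library held between 30917613 and 48756794 counts. At this depth 3 counts corresponded to between 0.0596 and 0.0962 CPM (counts scaled to the library's total, corrected with TMM factors), a floor for counting error only. Myogenic markers were present in every library, with Myod1 between 399 and 1060 CPM and Des between 2784 and 3932 CPM. Markers of differentiated muscle were also high. Their 5 genes summed to 34007.5, 26966.9 and 26293 CPM with vehicle and 24382, 22309.9 and 25682.1 CPM with PSB-KD107. Of these 5, 3 had a log2 fold change above 0 and 2 below it (median 0.01). The 7 immune markers summed to between 0.69 and 6.58 CPM, with Adgre1 at 0 counts in all 6 libraries and Ptprc at no more than 0.0321 CPM, and the lowest sum was in PSB-KD107 library 4. The summed level of 6 fibroblast or fibro-adipogenic markers was 5.05, 2.23 and 1.86 CPM with vehicle and 6.58, 2.25 and 10.7 CPM with PSB-KD107. Most of the 10.7 CPM came from Ly6a, while Dcn was at its lowest in that library. The sum of 4 endothelial markers lay between 0.31 and 1.40 CPM. In bulk RNA, fewer cells of a type and less RNA per cell cannot be told apart.

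Promoter sequence is shown for 5 genes on which the results below turn. Psmb5, Psmc6, Psmd6 and Psme1 lie on chromosome 14 and varied together between libraries, and Psmc3ip had the lowest p-value of the 46 genes. Each line runs from 250 bases before to 50 bases after the start of the gene in RefSeq (GRCm38.p6), 5′ to 3′ on the strand of the gene. Capitals mark an antioxidant response element (TGACNNNGC, the kind of site bound by Nfe2l1 and Nfe2l2) in Psmb5 and Psmc6, an ETS site (CCGGAAG) in Psmc6, Psmd6 and Psmc3ip, and the core of an interferon-stimulated response element in Psme1, each searched on both strands.
Psmb5 (chr14:54617946-54618245, minus strand): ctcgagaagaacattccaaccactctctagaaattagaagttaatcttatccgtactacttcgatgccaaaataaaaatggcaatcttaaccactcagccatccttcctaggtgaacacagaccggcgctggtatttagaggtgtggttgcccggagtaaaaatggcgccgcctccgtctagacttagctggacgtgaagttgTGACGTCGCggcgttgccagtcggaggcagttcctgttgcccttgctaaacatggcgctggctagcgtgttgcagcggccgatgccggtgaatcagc
Psmc6 (chr14:45329574-45329873, plus strand): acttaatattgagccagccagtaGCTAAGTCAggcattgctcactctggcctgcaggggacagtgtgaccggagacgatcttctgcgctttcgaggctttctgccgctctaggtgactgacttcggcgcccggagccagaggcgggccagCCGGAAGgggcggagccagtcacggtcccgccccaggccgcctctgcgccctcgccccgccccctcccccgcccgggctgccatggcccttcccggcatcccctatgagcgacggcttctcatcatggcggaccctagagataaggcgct
Psmd6 (chr14:14120896-14121195, minus strand): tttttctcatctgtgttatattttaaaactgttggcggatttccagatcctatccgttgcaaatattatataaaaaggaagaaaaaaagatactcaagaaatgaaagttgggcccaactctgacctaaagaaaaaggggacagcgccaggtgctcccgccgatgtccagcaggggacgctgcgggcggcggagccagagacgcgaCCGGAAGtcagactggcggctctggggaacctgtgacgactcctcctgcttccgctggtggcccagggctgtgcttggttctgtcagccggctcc
Psme1 (chr14:55578244-55578543, plus strand): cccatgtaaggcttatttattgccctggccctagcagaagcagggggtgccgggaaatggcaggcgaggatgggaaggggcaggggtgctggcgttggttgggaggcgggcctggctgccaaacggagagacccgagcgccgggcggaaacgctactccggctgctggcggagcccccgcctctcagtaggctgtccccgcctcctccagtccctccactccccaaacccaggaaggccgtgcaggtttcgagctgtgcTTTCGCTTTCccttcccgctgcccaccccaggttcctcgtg
Psmc3ip (chr11:101095386-101095685, minus strand): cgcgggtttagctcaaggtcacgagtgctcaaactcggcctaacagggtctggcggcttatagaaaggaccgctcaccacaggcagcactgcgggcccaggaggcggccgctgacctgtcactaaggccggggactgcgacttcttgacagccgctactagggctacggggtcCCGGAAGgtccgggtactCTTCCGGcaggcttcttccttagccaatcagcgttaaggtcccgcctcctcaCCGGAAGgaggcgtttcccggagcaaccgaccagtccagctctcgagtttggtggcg

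A promoter window was found in RefSeq for 38 of the 46 genes, in 41 windows. The ETS letters occurred in 39.0% of these windows (16 of 41), against 8.86% of all 32851 windows. They were in 6 of 9 windows of the base and 4 of 6 of the lid, but in 1 of 8 of the alpha rings and 0 of 5 of the beta rings. The antioxidant response element occurred in 6 windows (14.6%, against 12.4% of all), those of Psmb5, Psmb6, Psmc6, Psmd9, Psmd12 and Psme4, at position -47 in Psmb5, where 1 is the first transcribed base, and at -227 in Psmc6. The interferon element core was in 5 windows (12.2%, against 3.44%), at position 10 in Psme1, and the nuclear respiratory factor letters were in 7 (17.1%, against 6.23%). The CCAAT box was found in 34.1% (37.4% of all), the heat shock element core (GAANNTTC) in 2.44% (7.86%) and the TATA box core (TATAAA) in 7.32% (13.6%). These matches describe letters in a window, not bound sites.

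The question put to the data was whether the subunits moved as a complex after PSB-KD107, and whether core, base, lid and activators differed. None of the 44 tested genes passed an adjusted p-value of 0.05 in edgeR, where 0 of 14165 genes did. At an unadjusted p under 0.05, edgeR called 1 of the 44, Psmc3ip, which was lower and which is not a proteasome subunit, beside 9.40% of all genes (6.47% higher and 2.93% lower). DESeq2 called the same gene and no other of the 44 at an adjusted p under 0.05, beside 3.39% of all genes. The fold changes of the 44 genes had a median of -0.02 on the log2 scale, with 15 higher (49.9% of all genes were) and 29 lower, and 37 of them lay within 0.2 of no change, against 49.6% of all genes. At the median of the 44 genes, the highest library stood 1.20 times above the lowest, against 1.71 times for all tested genes. The genes were not matched by level in this comparison or in that of changes within 0.2. The median SE was 0.10 for the 44 genes and 0.23 for all tested genes. The vehicle and PSB-KD107 values did not overlap for 1 gene in the higher direction (Psme4; 9.20% of all genes) and for 2 in the lower (Psmc1 and Psmc3ip; 6.59% of all).

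**Figure D1:**
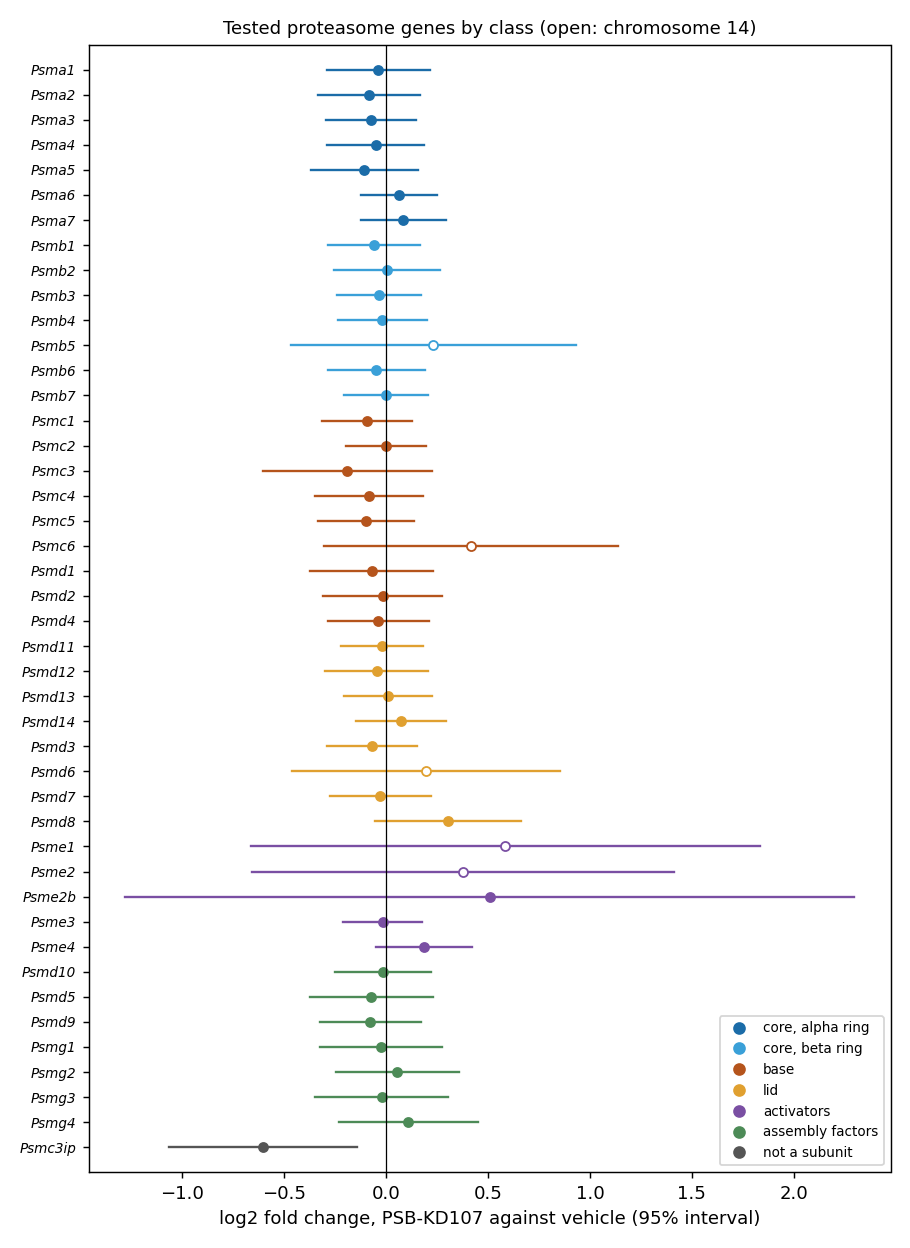
Log2 fold change of PSB-KD107 against vehicle with its 95% interval (edgeR, 3 libraries per group) for the 44 tested genes, coloured by class, with open circles for chromosome 14. The intervals of the 43 genes other than Psmc3ip include 0, and the open circles have wide intervals and lie to the right of 0.

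Per kilobase of the principal transcript in GENCODE, the vehicle level was highest for the beta rings and the base. With each length, the class median was taken in each vehicle library and averaged over the 3. It was 173 CPM per kb for the beta rings, 164 for the base, 115 for the alpha rings and 89.4 for the lid. For the activators it was 34.5 and for the assembly factors 19.5. The order of core, base and lid depended on the length. With all annotated exons, the beta rings were at 69.5, the base at 94.1, the lid at 48.4 and the alpha rings at 48.1 CPM per kb, and with the coding length alone, the alpha rings (197) were above the base (190). Activators and assembly factors came below these classes with each length. The ATPase gene Psmc3 stood highest of all, at 409 ± 30.002 CPM per kb (SD, n = 3). Of the catalytic subunits, Psmb6 was at 222 ± 11.8, Psmb7 at 180 ± 9.56 and Psmb5 at 113 ± 35.3 CPM per kb (SD, n = 3), and Psmb5 had the widest spread. With the coding length Psmb5 was again the lowest of the 3 (129, against 249 for Psmb6 and 251 for Psmb7), but with all annotated exons it was the highest (113, against 94.8 and 60.9 CPM per kb).

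The alpha rings hardly moved. Their 7 tested genes, Psma1 to Psma7, had log2 fold changes between -0.11 and 0.08 (median -0.05), with 2 higher and 5 lower. Psma5 was the farthest from 0, with 133, 148 and 159 CPM in vehicle libraries 1, 2 and 4 and 130, 148 and 130 CPM in PSB-KD107 libraries 1, 2 and 4 (log2 fold change -0.11, SE 0.11, edgeR unadjusted p = 0.358, adjusted p = 0.789). Psma7 was the highest, with 123, 121 and 134 CPM against 129, 138 and 134 CPM (0.08, SE 0.08). Psma3 was at 181, 177 and 189 CPM against 176, 183 and 161 CPM (-0.07, SE 0.09). The groups overlapped for all 3. Psma8, the testis form of an alpha subunit, had 0 counts in all libraries, which allows at most the floor of 0.0962 CPM in the shallowest of them.

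Of the beta rings, 7 genes were tested, and 6 of them had log2 fold changes within 0.2 of 0 (class median -0.02, with 2 higher and 5 lower). Psmb7, the trypsin-like site, was at 221, 203 and 201 CPM with vehicle and 211, 205 and 209 CPM with PSB-KD107, and the 95% interval of its log2 fold change ran from -0.21 to 0.21. Psmb6, the caspase-like site, was at 186, 168 and 178 CPM against 181, 176 and 157 CPM (-0.05, SE 0.10, interval -0.29 to 0.19). Both catalytic genes kept within a narrow band in all 6 libraries. Psmb5, the chymotrypsin-like site and the main target of clinical proteasome inhibitors, did not. It was at 138, 85.6 and 81.6 CPM with vehicle and 143, 82.9 and 132 CPM with PSB-KD107 (log2 fold change 0.23, SE 0.29, edgeR adjusted p = 0.836). The high libraries were vehicle 1 and PSB-KD107 1 and 4, so the groups overlapped and the treatment did not separate them. The ratio of Psmb5 to the mean of Psmb6 and Psmb7 was 0.68, 0.46 and 0.43 with vehicle and 0.73, 0.43 and 0.72 with PSB-KD107. Psmb1, a structural beta subunit, had a log2 fold change of -0.06, and Psmb11, the beta subunit of the thymus, was seen with 1 count in each of 2 libraries and was not tested.

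**Figure D2:**
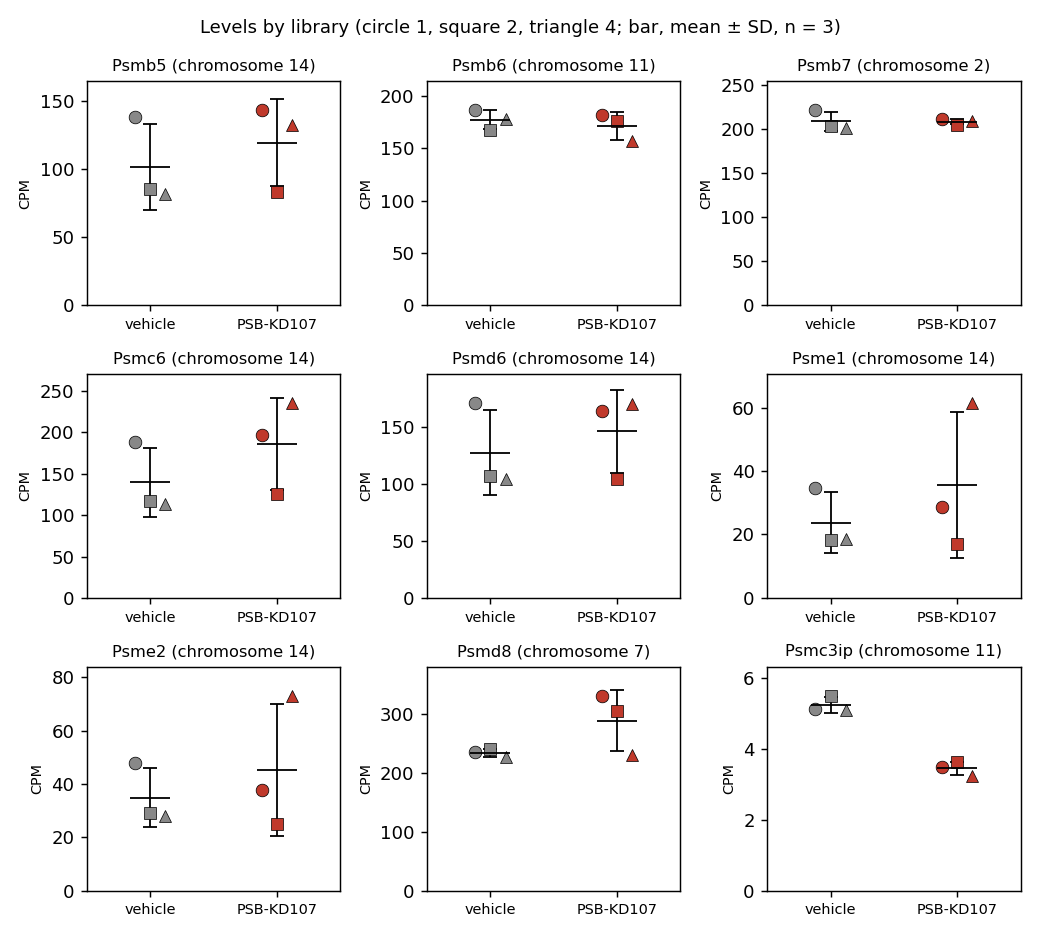
CPM of 9 genes in each library (circles library 1, squares 2, triangles 4; grey vehicle, red PSB-KD107), with a bar for the mean and its SD (n = 3), on axes that start at 0. Psmb6 and Psmb7 stay level, the 5 chromosome 14 genes split vehicle library 1 from 2 and 4 and PSB-KD107 library 2 from 1 and 4, and the 2 groups of Psmc3ip do not overlap.

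The base was lower in 8 of its 9 genes, but by small amounts (median log2 fold change -0.07). Psmc1, an ATPase, was at 317, 314 and 329 CPM with vehicle and 309, 311 and 279 CPM with PSB-KD107. The groups did not overlap, and the log2 fold change was -0.09 (SE 0.09, edgeR adjusted p = 0.786). Psmc3, the ATPase with the highest level, gave 621, 666 and 719 CPM against 582, 708 and 469 CPM (-0.19, SE 0.17, adjusted p = 0.772 in edgeR). Its lowest value was PSB-KD107 library 4, and the other 2 treated libraries lay on either side of the lowest vehicle library. Psmc6 was the exception among the ATPases, with 188, 117 and 114 CPM against 197, 126 and 235 CPM (0.42, SE 0.30, edgeR adjusted p = 0.711). It was high in the same 3 libraries as Psmb5. Its ratio to the mean of Psmc1 to Psmc5 was 0.59, 0.36 and 0.33 with vehicle and 0.64, 0.37 and 0.88 with PSB-KD107. The scaffold subunit Psmd2 and the ubiquitin receptor Psmd4 had log2 fold changes of -0.02 and -0.04.

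The direction of the base rested on the libraries numbered 4. Over the 28 tested core, base and lid genes outside chromosome 14, the median deviation from each gene's mean over the 6 libraries was -0.04, 0.02 and 0.08 (log2) with vehicle and -0.01, 0.07 and -0.12 with PSB-KD107. The lowest of these was library 4 of the treated group, and vehicle library 1 was the next lowest. Without PSB-KD107 library 4 the median log2 fold change of the base was 0.01, and without vehicle library 4 it was -0.01. The summed level of the 9 base genes was 2878, 2955 and 3111 CPM with vehicle and 2883, 3079 and 2638 CPM with PSB-KD107, and that of the 16 core genes was 2130, 2121 and 2197 CPM against 2133, 2190 and 2044 CPM.

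The lid was split, as 4 of its 8 genes lay above 0 and 4 below it, around a median of -0.01 (log2). Psmd8, a lid subunit needed late in its assembly, differed most. It was at 236, 240 and 226 CPM with vehicle and 330, 304 and 231 CPM with PSB-KD107 (log2 fold change 0.30, SE 0.15, 95% interval -0.06 to 0.66, edgeR unadjusted p = 0.0856, adjusted p = 0.608). Treated libraries 1 and 2 stood above every vehicle library, and treated library 4 fell among them. When single libraries were left out, its log2 fold change ran from 0.18 (without PSB-KD107 library 1, edgeR unadjusted p = 0.272) to 0.44 (without PSB-KD107 library 4, edgeR unadjusted p = 0.00441, adjusted p = 0.210), and in the other 4 of these fits the unadjusted p was between 0.150 and 0.202. Without PSB-KD107 library 4, Psmd8 and Psmc3ip were the 2 genes of the 44 with an unadjusted p under 0.05, beside 10.6% of all genes in that fit. Psmd14, the deubiquitinase of the lid, was at 115, 119 and 119 CPM against 130, 128 and 113 CPM (0.07, SE 0.09), and Psmd3, a scaffold of the lid, was at 223, 209 and 215 CPM against 217, 208 and 192 CPM (-0.07, SE 0.09). Psmd6 was high in the same libraries as Psmb5 and Psmc6, with 171, 107 and 104 CPM against 164, 104 and 170 CPM (0.20, SE 0.27, edgeR adjusted p = 0.851). Against the mean of the other lid genes it stood at 0.95, 0.58 and 0.56 with vehicle and 0.83, 0.53 and 0.99 with PSB-KD107.

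The activators were the class with the highest median log2 fold change, 0.38 over 5 genes, of which 4 were higher, but this rested on 1 library. Psme1 and Psme2, which together form the cytoplasmic activator that interferon induces, were highest in PSB-KD107 library 4. Psme1 was at 34.7, 18.1 and 18.4 CPM with vehicle and 28.6, 17.0 and 61.4 CPM with PSB-KD107 (0.58, SE 0.51, edgeR adjusted p = 0.769), and Psme2 was at 47.8, 29.0 and 27.9 CPM against 37.9, 25.2 and 73.0 CPM (0.38, SE 0.42, adjusted p = 0.812 in edgeR). For both genes, PSB-KD107 library 2 was below every vehicle library. PSB-KD107 library 1 was below vehicle library 1 but above vehicle libraries 2 and 4. Without PSB-KD107 library 4 the log2 fold changes turned to -0.06 and -0.15, and the median of the class became -0.06. Relative to Psme3, the nuclear activator, the sum of Psme1 and Psme2 was 0.63, 0.35 and 0.34 with vehicle and 0.49, 0.31 and 1.06 with PSB-KD107. Psme3 itself did not move with them (log2 fold change -0.02, SE 0.08, interval -0.21 to 0.18).

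Psme4, the large activator linked to DNA repair and to histone turnover, was the activator whose groups did not overlap. It was at 288, 318 and 308 CPM with vehicle and 323, 351 and 365 CPM with PSB-KD107. The log2 fold change was 0.19 (SE 0.10, 95% interval -0.05 to 0.42, edgeR unadjusted p = 0.102, adjusted p = 0.623), and an exact two-sided permutation test gave p = 0.1, the smallest it can give with 3 against 3. Psme2b, a near-identical copy of Psme2, had 17, 10 and 4 counts with vehicle and 13, 5 and 29 with PSB-KD107, and these counts may belong to Psme2.

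The assembly factors were level. The 7 genes, Psmg1 to Psmg4 for the core and Psmd5, Psmd9 and Psmd10 for the base, had log2 fold changes between -0.08 and 0.11 (median -0.02). Psmd5 was at 57.7, 66.2 and 68.9 CPM with vehicle and 58.3, 69.1 and 56.1 CPM with PSB-KD107 (-0.07, SE 0.12). Psmd9 was at 32.3, 34.6 and 33.0 CPM against 32.4, 33.0 and 29.3 CPM (-0.08, SE 0.10), and Psmg4 at 9.95, 11.5 and 11.1 CPM against 11.2, 11.9 and 12.02 CPM (0.11, SE 0.14). In each of the 3, values of the 2 groups overlapped.

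Psmc3ip bears the Psm prefix because its protein binds the ATPase encoded by Psmc3, but it is a cofactor of homologous recombination and not a subunit. It was at 5.13, 5.50 and 5.12 CPM with vehicle and 3.50, 3.62 and 3.25 CPM with PSB-KD107, so that every treated library lay below every vehicle library. The log2 fold change was -0.60 (SE 0.19, 95% interval -1.06 to -0.14), with an unadjusted p of 0.0185 and an adjusted p of 0.414 in edgeR and an adjusted p of 0.0289 in DESeq2. Without vehicle library 2, or without vehicle library 4, its unadjusted p in edgeR was no longer under 0.05, while the log2 fold changes were -0.58 and -0.62. The gene overlaps Mlx on the opposite strand. The strand setting of the counting is not given in the sources used here, and 21 of the 46 genes overlap another annotated gene.

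**Figure D3:**
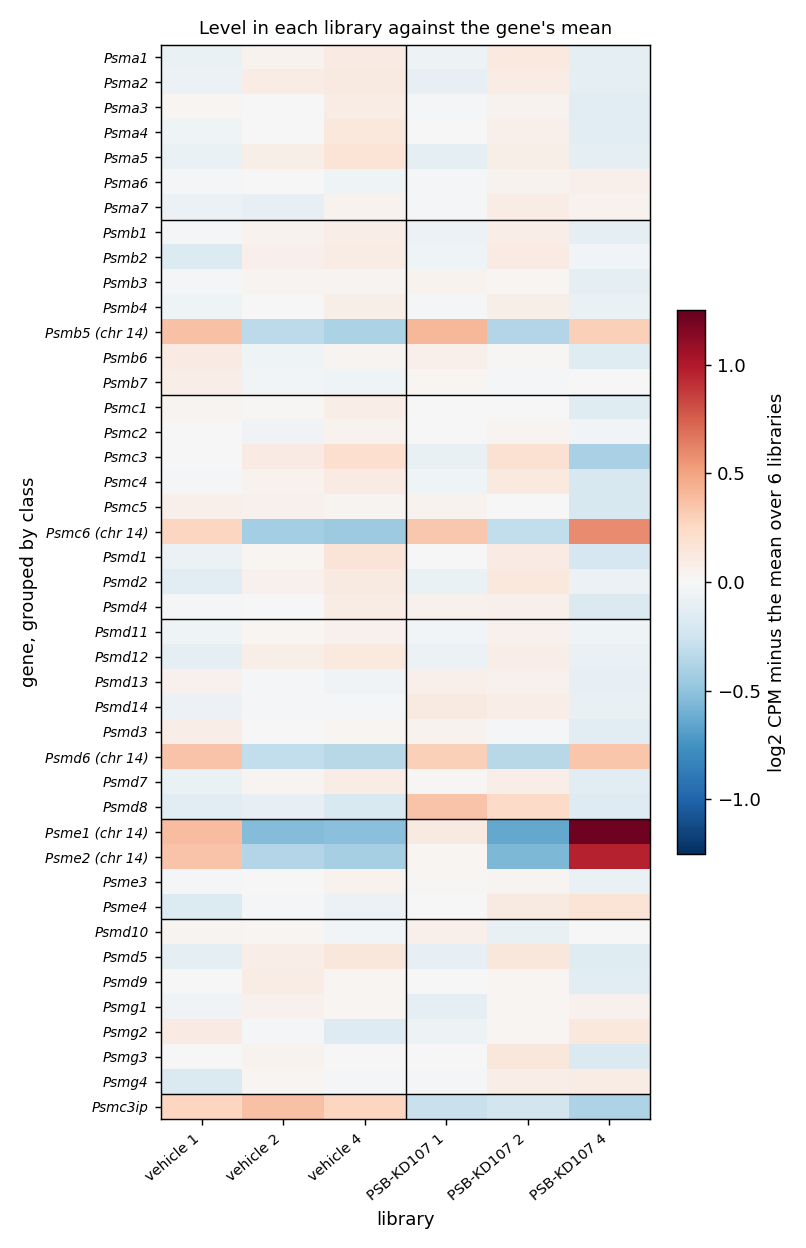
Log2 CPM of each tested gene minus its mean over the 6 libraries, by class (rows) and library (columns; vehicle left, PSB-KD107 right), without Psme2b, whose counts were low. The rows of the 5 chromosome 14 genes stand out, and most of the other rows are faint.

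The 5 tested genes that varied together share a chromosome. Psmd6 (chr14:14112174-14120984), Psmc6 (chr14:45329788-45349705), Psmb5 (chr14:54614119-54618022), Psme1 (chr14:55578123-55581529) and Psme2 (chr14:55587441-55591113; GRCm38) belong to the lid, the base, the beta ring and the activators. Psme1 and Psme2 are separated by 5912 bases. For all 5 genes, vehicle library 1 and PSB-KD107 libraries 1 and 4 were above vehicle libraries 2 and 4 and PSB-KD107 library 2. Psmb11, the other gene of the family on this chromosome, had too few counts to be read.

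Up to 80 Mb, the rest of chromosome 14 varied in the same way. Beyond 80 Mb, PSB-KD107 library 4 was low instead, with median deviations of -0.39, -0.28 and -0.31 (log2) in bins of 20 Mb. Over the whole chromosome, the median deviation of the other 459 tested genes from their means was 0.41, -0.37 and -0.48 (log2) with vehicle. With PSB-KD107 it was 0.44, -0.37 and 0.45, so that the highest library stood 1.90 times above the lowest. On the other autosomes except chromosome 6 this ratio was between 1.02 and 1.09. On chromosome 6, which holds none of the 46 genes, it was 1.44, with the lowest median in PSB-KD107 library 4. The other chromosome 14 genes were mostly higher (372 against 87), and their fold changes centred on 0.29 (log2). The difference between the treated and the vehicle median of the same number was 0.04 for 1, -0.00 for 2 and 0.93 for 4. These numbers were not taken to pair the libraries, and the deviations of the 2 libraries numbered 4 correlated at -0.13.

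**Figure D4:**
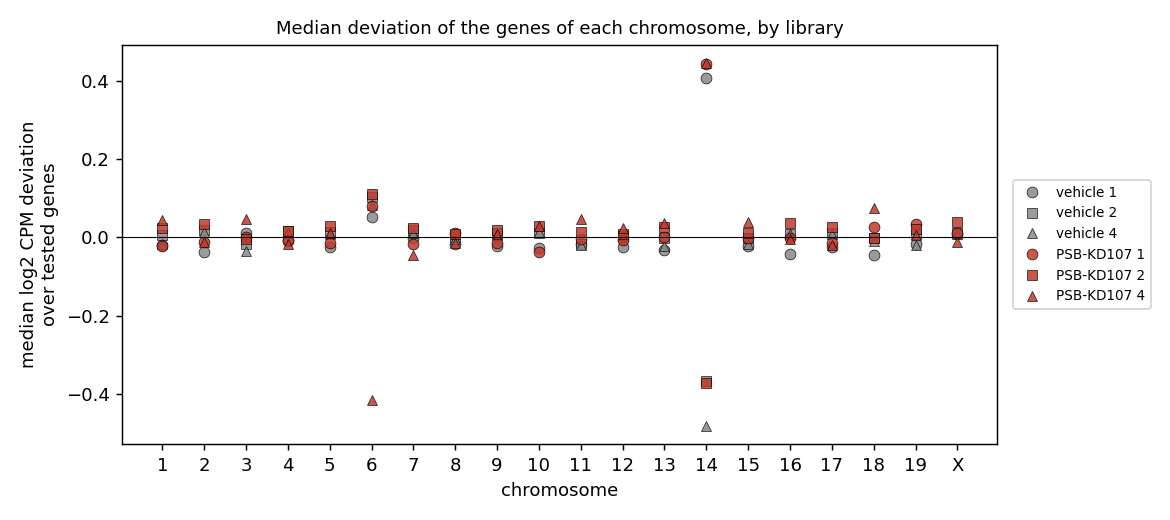
Median deviation of log2 CPM over the tested genes of each chromosome other than the proteasome genes, by library (symbols as in the key). On chromosome 14 the libraries fall between -0.48 and 0.45, on chromosome 6 PSB-KD107 library 4 lies at -0.41, and elsewhere all points are near 0.

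When each library was read relative to the median of the chromosome, the differences of the 3 proteasome subunits on chromosome 14 became small. This median was taken over the whole chromosome, with the part beyond 80 Mb included. The log2 fold change of Psmb5 turned from 0.23 to -0.09 (SE 0.08), that of Psmc6 went from 0.42 to 0.09 (SE 0.10) and that of Psmd6 turned from 0.20 to -0.12 (SE 0.09). Their SEs in the fit without this step had been 0.29, 0.30 and 0.27, and the median SE over the 44 genes was 0.10. Psme1 and Psme2 kept a part of their pattern. Less the chromosome median, Psme1 was at -0.02, -0.18 and -0.04 (log2) with vehicle and at -0.33, -0.27 and 0.77 with PSB-KD107, and Psme2 was at -0.05, 0.00 and 0.06 against -0.42, -0.19 and 0.52. Their log2 fold changes were then 0.23 (SE 0.31) and 0.02 (SE 0.25). DNA was not analysed here, and what set the level of the chromosome was not tested.

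The immunoproteasome subunits, which replace the catalytic subunits when interferon is present, were highest in the same library as Psme1 and Psme2. Psmb8 was at 1.12, 0.63 and 0.71 CPM with vehicle and 0.30, 0.19 and 17.9 CPM with PSB-KD107, and Psmb9 at 0.41, 0.69 and 0.31 CPM against 0.26, 0.19 and 4.92 CPM. Both lie on chromosome 17, and both were lower in treated libraries 1 and 2 than in every vehicle library, but on few counts. Psmb8 had 44, 22 and 23 counts with vehicle and 15, 6 and 652 with PSB-KD107. Psmb9 had 16, 24 and 10 counts against 13, 6 and 179. Psmb10, on chromosome 8, was at 14.6, 13.3 and 11.6 CPM with vehicle and 23.3, 19.4 and 40.9 CPM with PSB-KD107 (log2 fold change 1.08, SE 0.30, edgeR adjusted p = 0.359, DESeq2 adjusted p = 0.0429). PSB-KD107 library 4 also had the highest sum of the 6 fibroblast or fibro-adipogenic markers and the lowest of immune markers. In the first of these sums, Ly6a made up 8.36 of 10.7 CPM, while Dcn was at its lowest in this library (0.0275 CPM, against 0.516 CPM or more in the others) and Lum was at 0 in every library. The part of either list in these values was not tested. The 3 immunoproteasome genes together amounted to 0.030, 0.032 and 0.027 of the summed Psmb5, Psmb6 and Psmb7 with vehicle and to 0.044, 0.043 and 0.13 with PSB-KD107.

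Genes that act around the proteasome were read from lists. Of 10 genes on the Nfe2l1 and Nfe2l2 axis, 8 were higher (49.9% of all genes were), with a median log2 fold change of 0.37. An unadjusted p under 0.05 in edgeR was reached by 5 of these 8, beside 6.47% of all genes in the higher direction. None passed adjustment, and the list was chosen with earlier results of these data known. Nfe2l1 was at 611, 740 and 737 CPM with vehicle and 907, 1079 and 767 CPM with PSB-KD107 (0.40, SE 0.16, edgeR adjusted p = 0.531). Every treated library was above every vehicle library, library 4 by the least. Maff and Mafk, small partners of these factors, had log2 fold changes of 1.12 (SE 0.26) and 0.62 (SE 0.15), with adjusted p-values of 0.269 and 0.281 in edgeR and 0.00730 and 0.0217 in DESeq2.

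Among 15 genes of ubiquitin supply and shuttling, 7 lay above 0 and 8 below, around a median of -0.01 (log2). In edgeR, 1 of the 15 was higher with an unadjusted p under 0.05, beside 6.47% of all genes. Rad23b, a shuttle that carries ubiquitinated proteins to the proteasome, had a log2 fold change of 0.18 (SE 0.09, edgeR unadjusted p = 0.0805). A list of 13 further subunits and partners that the symbol rule does not take, among them Shfm1, Adrm1 and Pomp, had a median of 0.03. None of the 13 had an unadjusted p under 0.05 in edgeR, beside 9.40% of all genes. Shfm1 (-0.21, SE 0.19) lies on chromosome 6. The smallest p-values were those of Zfand2a, a stress-induced ubiquitin-binding protein (0.40, SE 0.19), and of Psmf1, an inhibitor of the core (0.21, SE 0.11).

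Other large complexes were read beside the proteasome. The COP9 signalosome, which resembles the lid in its subunits, had 9 of 9 genes lower (median -0.09 in log2), while 49.9% of all genes were higher. Its smallest p-values were those of Cops6 (-0.18, SE 0.08) and Gps1 (-0.15, SE 0.08). The translation factor eIF3, which shares the same architecture, had a median of -0.02 over 14 genes, and the CCT chaperonin, which folds actin and tubulin, had a median of -0.11 over 8. No gene of these 3 complexes had an unadjusted p under 0.05 in edgeR, beside 9.40% of all genes. The groups did not overlap in the lower direction for 4 COP9, 1 eIF3 and 2 CCT genes (6.59% of all genes). In the higher direction they did not overlap for 2 eIF3 genes and for none of the others (9.20% of all genes). The 28 tested core, base and lid genes outside chromosome 14 had a median of -0.04, and 27 of them lay within 0.2 of 0 on the log2 scale, as did 9 of 9 COP9, 14 of 14 eIF3 and 7 of 8 CCT genes. The 3 other complexes kept their genes on chromosome 6, where PSB-KD107 library 4 was low. These include Cops7a and the CCT gene beyond 0.2, Cct7 (-0.29, and -0.15 relative to the chromosome median). At the median gene, the highest library stood 1.18 times above the lowest for these 28, and 1.20, 1.19 and 1.20 times for the 3 other complexes.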

How the data were processed

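RNA of 6 libraries was sequenced from poly(A) RNA on a NovaSeq in paired-end mode. The authors aligned the reads to mm10 with STAR and deposited raw counts per gene, without normalization. The counting program, annotation and strand setting are not given in the sources used here. Groups follow the sample records and column names, and libraries numbered 4 were assigned to a group only. Positions and lengths came from GENCODE M21 (GRCm38), promoters from RefSeq GRCm38.p6.

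Counts were analysed with edgeR 4.0.16 in R 4.3.3 (filterByExpr, TMM, quasi-likelihood test over all 6 libraries, Benjamini-Hochberg adjustment, threshold 0.05). Alternatives used DESeq2 1.42.0, limma 3.58.1 (voom), RLE and upper-quartile factors, no filter, each library left out, replicate blocks and, added after seeing the data, fits relative to the chromosome median and without chromosome 14, and other gene lengths. P-values measure the spread between 3 libraries per group. A group counts as not overlapping when all its values lie on one side of the other's.

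On simulated counts of 13941 genes for this comparison, edgeR recovered 48% of genes changed 4-fold and 16% of those changed 2-fold, with 6 false calls among 70, and DESeq2 71% and 46%, with 69 false among 186.

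The 46 genes and all lists were chosen with earlier results of these data known. All 46 were accounted for. Values per library were given for the catalytic subunits, the 3 tested genes with the smallest p-values of each class, any with an unadjusted p under 0.05, and up to 2 genes per further list, plus the immunoproteasome. Psmc6, Psmd6, Psme2b and a few others were detailed after their values were seen. Some genes covered by this rule are not reported here.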

Additional observations from a re-analysis of the deposited data

How the results depend on the processing

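No alternative changed the count of 0 genes called among all genes tested except 3. Without a filter 8 genes were called, with DESeq2 480, and with a replicate block on libraries 1 and 2 alone 2456. DESeq2 called 1 of the 44 proteasome genes (Psmc3ip, -0.62 in log2), beside 3.39% of all genes. The block on libraries 1 and 2 also called 1 (Psmd8, 0.41, edgeR adjusted p = 0.00774), beside 17.1% of all genes. Under this block 4 of 44 had an unadjusted p under 0.05, beside 30.6% of all genes. The median of the base was 0.038 with this block and 0.038 in the same 4 libraries without it. The median of the assembly factors was -0.048 with upper-quartile factors. With libraries left out in turn, 0 to 2 of the 44 proteasome genes had an unadjusted p under 0.05, beside 4.65% to 12.2% of all genes. Over these fits the median of the assembly factors ranged from -0.053 to -0.014.

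Several small fold changes (log2) reversed. With the block on libraries 1 and 2 these were Psmb6 (0.017), Psme1 (-0.20), Psme2 (-0.27), Psmd5 (0.037) and Psma3 (0.0044), and in the same libraries without it Psmb6 (0.015), Psme1 (-0.21), Psme2 (-0.28), Psmd5 (0.038), Psma3 (0.0049), Psmc3 (0.0021) and Psmb1 (0.0015). Psmb7 reversed to 0.00093 with limma-voom and to 0.00089 with a block over all 6 libraries, and Psmb5 to -0.086 relative to the chromosome. With libraries left out, Psmb7 ranged from -0.028 to 0.038, Psmb6 from -0.11 to 0.012, Psme1 from -0.061 to 0.96 and Psme2 from -0.15 to 0.67. The causes were not tested. The table's numbers were not taken to pair the libraries. Deviations of same-numbered libraries correlated at 0.63 for 1 and 0.50 for 2 but at -0.13 for 4, and vehicle library 4 correlated best with PSB-KD107 library 2 (0.64). Among motif shares on the forward strand only, the ETS letters were in 24.4% of the windows of proteasome genes and 4.77% of all. Coding length taken from RefSeq proteins was not run, and the GENCODE coding length was used. A change under the intervals given could not be detected with 3 libraries per group.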

Other observations

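Along chromosome 14 the libraries did not keep 1 order. In the bins of 20 Mb up to 80 Mb, where all the proteasome genes of this chromosome lie, the median deviation of the other tested genes in PSB-KD107 library 4 was between 0.47 and 0.54 (log2), close to vehicle library 1 (0.38 to 0.43) and PSB-KD107 library 1 (0.38 to 0.47). In the 3 bins beyond 80 Mb, of 13, 27 and 14 genes, PSB-KD107 library 4 was at -0.39, -0.28 and -0.31, while vehicle library 1 stayed at 0.45, 0.51 and 0.45 and PSB-KD107 library 1 at 0.56, 0.64 and 0.52. The bin with 13 genes holds few values.

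Pax7, the marker of muscle stem cells, was at 68.8, 49.9 and 60.0 CPM with vehicle and 34.0, 26.8 and 35.1 CPM with PSB-KD107 (log2 fold change -0.90, SE 0.17, adjusted p = 0.209 in edgeR and 0.000665 in DESeq2). It had the smallest p-value of the 10 myoblast markers used to check the cells, of which 4 were higher and 6 lower, around a median of -0.09. Myf5 (0.73, SE 0.92) and Itgb1 (0.30, SE 0.24) had the highest log2 fold changes among them.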
